A study of Mus musculus with 16 samples.

Results

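Transcript levels of 8 transcription factors, Stat3, Stat5a, Stat5b, Stat6, Irf1, Irf2, Irf3 and Irf5, were followed in 2 mouse mammary carcinoma cell lines. The 8 genes were taken from a list of symbols, and each symbol was matched to 1 Ensembl gene identifier among the 33072 genes of the count table. Metastatic 4T1 cells and non-metastatic 67NR cells are isogenic lines that stem from 1 spontaneous tumor of a BALB/c mouse. Both were cultured for 24 h with either the vehicle, DMSO, or 15 µM of CIX, a blocker of cytosolic phospholipase A2α, the enzyme that frees arachidonic acid from membrane lipids. RNA was sequenced from 4 biological replicates of each of the 4 groups (67NR vehicle, 67NR CIX, 4T1 vehicle and 4T1 CIX), 16 samples in all, which are named here by their sample numbers from 1 to 16. Each group is 1 cell line in culture, so no animal enters as a replicate, and no genetic change was made in any group.

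STAT proteins wait in the cytoplasm until Janus kinases bound to an activated cytokine receptor phosphorylate them. Phosphorylated STATs pair, enter the nucleus and bind palindromic GAS elements, and STAT6 prefers an element with a wider gap. IRF proteins bind the interferon-stimulated response element (ISRE). IRF3 and IRF5 are switched on by phosphorylation after foreign RNA, DNA or Toll-like receptor ligands are sensed, whereas IRF1 is induced as a transcript by interferon and competes with IRF2 for the same sites. Activation is therefore set mainly at the protein level for most of these factors, and RNA sequencing measured only their transcripts.

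The 16 samples held from 21715700 to 29450629 estimated counts each. Levels are given as CPM, counts relative to library size after scaling by the trimmed mean of M values, and 3 counts, the least taken as detected, were 0.108 to 0.137 CPM. The epithelial markers Cdh1, Epcam, Krt7, Krt8, Krt18, Krt19, Cldn3, Cldn4 and Esrp1 summed to 4117 to 5058 CPM in the 4T1 samples and to only 1.37 to 7.12 CPM in the 67NR samples, so the defining epithelial transcripts were near 0 in 67NR cells although the line is labelled as a carcinoma. Of the leukocyte markers, the macrophage marker Adgre1 stayed under 3 counts in every sample. Others were detected in 4T1 cells. Csf1r held 1 to 21 counts in 4T1 vehicle and 3 to 15 in 4T1 CIX samples, and Ptprc held 23 to 35 and 3 to 26. In 67NR samples both held at most 3 counts. The leukocyte sum was 9.30 to 14.2, 36.1 to 41.9, 53.0 to 90.0 and 133 to 199 CPM in the 67NR vehicle, 67NR CIX, 4T1 vehicle and 4T1 CIX samples, most of it Cd68, a lysosomal protein that is not limited to macrophages. Mesenchymal and fibroblast markers, mostly Vim, summed to 5302 to 5803, 7807 to 8985, 1103 to 1200 and 2490 to 2968 CPM in the same order of groups. The part of these markers in the members' values was not tested. In bulk RNA, fewer cells of a kind and less RNA in each cell cannot be told apart. The whole library of 67NR vehicle sample 13 stood apart, with a chi-square per gene of 84.6 to 98.0 against samples 1, 5 and 9, which differed from each other by 16.7 to 19.9. It was the highest of its group for 7 of the 7 members expressed there, and it enters every comparison that uses 67NR vehicle, so values without it are given where they change a call. Among the 4T1 vehicle samples, sample 3 was the lowest for 6 of the same 7 members. Samples 3 and 11 differed by a chi-square per gene of 108. Among the 4T1 CIX samples, sample 4 also stood apart, at 60.0 to 89.7 against samples 8, 12 and 16. Those differed from each other by 25.2 to 42.4. In the comparison of CIX with vehicle in 4T1, all 8 members kept their side of both limits without sample 3, and without sample 4.

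A gene is said below to have risen or fallen where its limma-voom p-value, adjusted over all genes tested in that comparison by the Benjamini-Hochberg procedure, was below 0.05, and it is said to have been called where it was also below 0.001, the limit that the study set for its own tests. The p-values rest on the spread between 4 cultures a group.

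The sequence before the start of transcription was searched first, because these factors can act on one another's genes. RefSeq windows of 300 bases (250 before and 50 after each annotated start, build GRCm38.p6) were held for 8 of the 8 members, 11 windows in all. Both strands were searched for TTCNNNGAA (GAS), TTCNNNNGAA (the STAT6 type) and GAAANNGAAA (the ISRE core), which occurred in 8.30%, 6.95% and 3.44% of 32851 windows of the same length over all genes. Only the windows of Irf1 and Irf2 held a match. They are printed because they show a GAS letter pattern in 2 members and an ISRE pattern beside it in 1 of them, with the matches in capitals. The Irf1 stretch is chr11:53769904-53769952 on the plus strand, and the Irf2 stretch is chr8:46739495-46739549 on the plus strand.
Irf1: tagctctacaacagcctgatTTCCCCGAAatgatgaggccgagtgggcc
Irf2: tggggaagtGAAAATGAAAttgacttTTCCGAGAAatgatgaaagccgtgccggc
The GAS match of Irf1 began 90 bases before its start. In Irf2 the ISRE core began 241 bases and the GAS match 224 bases before the start, and they did not overlap. A match is a description of letters and not evidence of binding, and windows without one say nothing about sites elsewhere in those genes.

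Across genes, levels were compared per length, as approximate TPM, relative transcript abundance from the counts divided by the mean length of a gene's annotated transcripts. Stat6, the mediator of interleukin-4 and interleukin-13 signals, was the most abundant member in every group. Its mean was 198 ± 24.6 TPM in 67NR vehicle and 231 ± 13.3 TPM in 4T1 vehicle samples (SD, n = 4), at percentiles 93.4 and 94.3 of the genes with a mean of at least 1 TPM. Irf5, known mainly from macrophages and dendritic cells, was the lowest in every group, at 0.0429 ± 0.0343 TPM in 67NR vehicle and 2.31 ± 0.516 TPM in 4T1 vehicle samples.

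Between these ends the order differed with the line. In 67NR vehicle samples Irf1 (71.3 TPM) and Irf3 (69.9 TPM) followed Stat6 and overlapped each other, then Stat3 (44.0 TPM), Irf2 (28.9 TPM) and Stat5b (24.6 TPM), of which each overlapped the next, and then Stat5a (16.1 TPM). In 4T1 vehicle samples Stat3 (115 TPM) and Irf1 (112 TPM) followed Stat6 and overlapped, then Irf2 (51.5 TPM), then Irf3 (20.3 TPM) and Stat5b (19.4 TPM), which overlapped, and Stat5a (8.19 TPM). Irf3 thus stood at percentile 78.4 in 67NR and 43.7 in 4T1, and Stat3 at 66.6 and 86.8. The middle of this order depended on the length used. With each gene's longest transcript instead, a choice made after seeing the data, Stat3 in 67NR vehicle came to 19.5 TPM and below Stat5b at 27.3 TPM, while Stat6 kept the highest and Irf5 the lowest mean in all 4 groups.

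**Figure D1:**
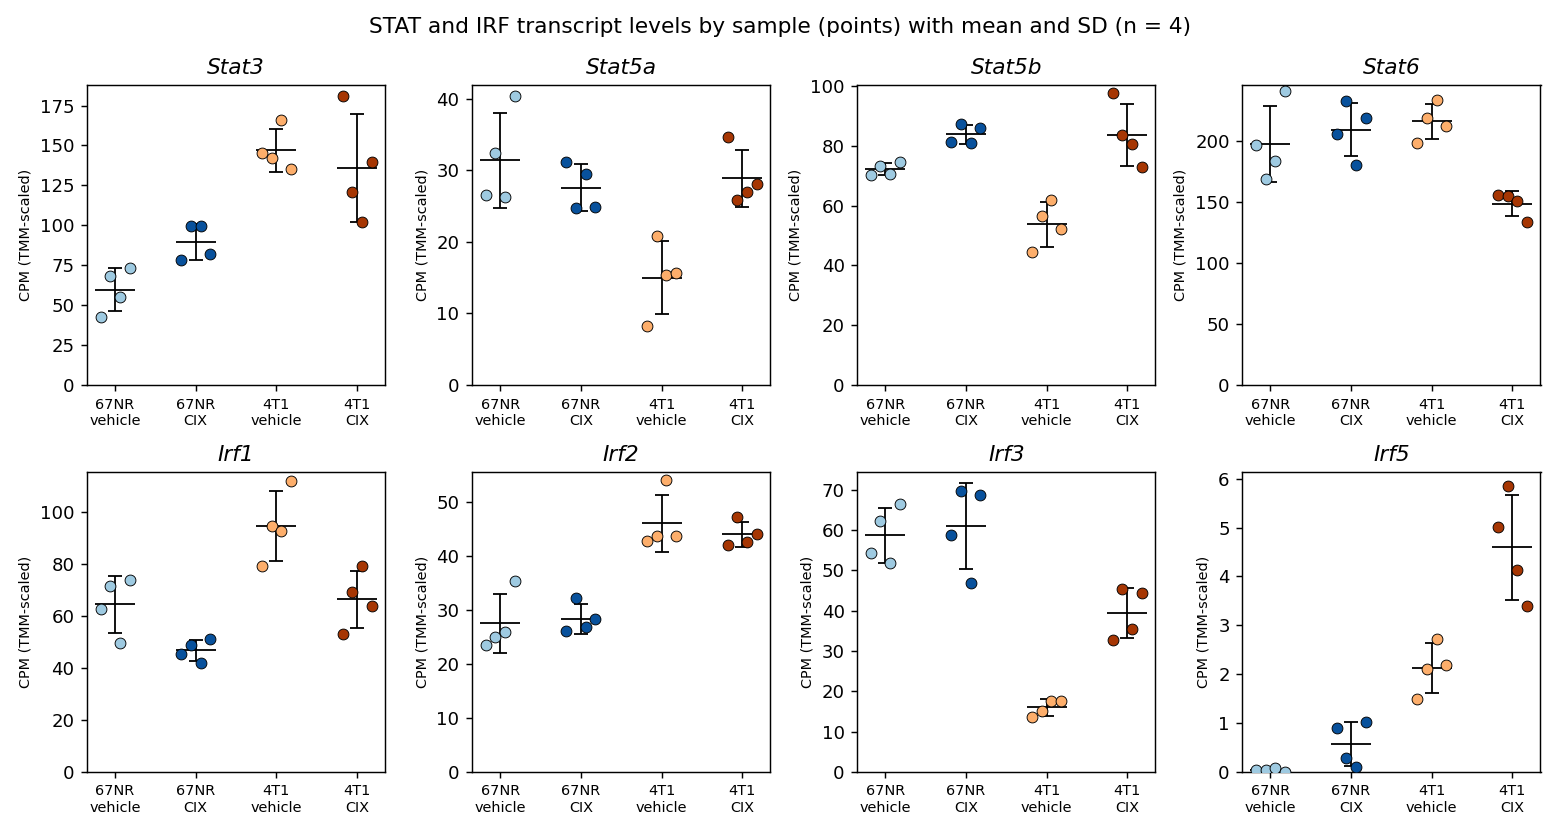
Level of each member in CPM (linear axes from 0, each panel with its own scale) in the 4 samples of each group, with the mean and SD as a bar and whiskers. Irf3 was lowest in 4T1 vehicle samples (13.6 to 17.7 CPM) and highest in both 67NR groups, whereas Irf5 was near 0 in 67NR vehicle samples and reached 3.39 to 5.85 CPM in 4T1 CIX samples.

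The lines were first compared without inhibitor. The ranges of the 2 lines did not overlap for 61.6% of all 11037 genes tested. Of 7 members tested, 2 were called, Stat3 as higher and Irf3 as lower in 4T1, against 40.0% of all 11037 genes tested. At the 0.05 limit 6 of the 7 passed, 3 higher and 3 lower in 4T1, against 67.4% of all genes. The members' counts thus stand against a background in which most genes differed between the lines at 0.05.

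Stat3 (ENSMUSG00000004040, chromosome 11, 100885098 to 100939540, GRCm38), the factor downstream of interleukin-6 family receptors, measured 42.8, 68.0, 54.9 and 73.0 CPM in 67NR vehicle samples 1, 5, 9 and 13, and 145, 142, 166 and 135 CPM in 4T1 vehicle samples 3, 7, 11 and 15. Every 4T1 sample was above every 67NR sample. The log2 difference was 1.32 (SE 0.17, limma-voom adjusted p = 8.92e-05), a 2.50-fold higher level, and it was called in each of 8 fits that left out 1 sample.

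Irf3 (ENSMUSG00000003184, chromosome 7, 44997648 to 45002848), the factor behind early interferon-beta induction, showed the opposite difference and the largest among the 7 tested members. It measured 54.3, 62.3, 51.9 and 66.4 CPM in 67NR vehicle samples and 13.6, 15.0, 17.7 and 17.6 CPM in 4T1 vehicle samples. The groups were far apart, with a log2 difference of -1.89 (SE 0.13, limma-voom adjusted p = 2.70e-06) that was called in each of 8 fits without 1 sample. Irf3 shares 1065 bases of its span with Bcl2l12 on the opposite strand, which lay at 9.46 to 9.90 CPM in 67NR vehicle and 4.63 to 6.55 CPM in 4T1 vehicle samples and was also called as lower in 4T1 (log2 -0.79, SE 0.13, limma-voom adjusted p = 6.27e-04). The library kit marks strand, but whether counting used it is not given in the sources used here, and any part of Bcl2l12 reads in the Irf3 value was not tested.

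Of the factor pair IRF1 and IRF2, Irf1 (ENSMUSG00000018899, chromosome 11, 53770014 to 53778374) was 49.7 to 73.9 CPM in 67NR vehicle and 79.3 to 112 CPM in 4T1 vehicle samples. Irf2 (ENSMUSG00000031627, chromosome 8, 46739732 to 46847458) was 23.6 to 35.5 CPM and 42.9 to 54.1 CPM. Both were higher in 4T1 with no overlap, by 0.55 (SE 0.15, limma-voom adjusted p = 0.00989) and 0.75 (SE 0.15, adjusted p = 0.0016) on the log2 scale, and neither was called. Irf2 was called with DESeq2, with library-size scaling, with all 16 samples in the fit and without 67NR sample 13 (0.90, limma-voom adjusted p = 2.10e-04).

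Both STAT5 genes, which carry prolactin and growth hormone signals in mammary epithelium, were lower in 4T1. Stat5a (ENSMUSG00000004043, chromosome 11, 100859351 to 100885169) was 26.2 to 40.3 CPM in 67NR vehicle and 8.30 to 20.8 CPM in 4T1 vehicle samples, a log2 difference of -1.12 (SE 0.26, limma-voom adjusted p = 0.00412). Stat5b (ENSMUSG00000020919, chromosome 11, 100780731 to 100850724) was 70.3 to 74.7 and 44.4 to 62.0 CPM, a log2 difference of -0.45 (SE 0.10, limma-voom adjusted p = 0.00407). The ranges did not overlap for either gene, and neither was called. DESeq2 called both, and the fit with all 16 samples called Stat5a. The annotated spans of Stat3 and Stat5a share 72 bases on opposite strands. Reads of the STAT5 pair are partly ambiguous, since 11.5% of the 31-base words of Stat5a transcripts also occur in Stat5b and 15.1% of those of Stat5b occur in Stat5a.

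Stat6 (ENSMUSG00000002147, chromosome 10, 127642986 to 127660957) overlapped between the lines, at 169 to 241 CPM in 67NR vehicle and 199 to 234 CPM in 4T1 vehicle samples, with a log2 difference of 0.13 (SE 0.12, limma-voom adjusted p = 0.359). Without 67NR sample 13 it was 0.26 (limma-voom adjusted p = 0.0316), so its side of the 0.05 limit rested on that sample.

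Irf5 (ENSMUSG00000029771, chromosome 6, 29526625 to 29541871) did not pass the filter on low values in this comparison. Calls that it gets with no filter or with all 16 samples in the fit are not read as support, since the 67NR vehicle counts lie under the limit of detection. The 67NR vehicle samples held 1, 1, 2 and 0 estimated counts and the 4T1 vehicle samples 36, 48, 63 and 53. Summed over the groups these are 4 and 200 counts, a ratio per depth of 50.9 with an exact 95% interval from 19.6 to 189 that covers counting error only. The transcript was thus at or under the 3-count limit in every 67NR vehicle sample and above it in every 4T1 vehicle sample.

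The effect of CIX in 4T1 cells was then examined. Vehicle and CIX ranges did not overlap for 40.0% of all 11660 genes tested. Of the 8 members, 1 was called, Irf3, against 9.31% of 11660 genes tested. At the 0.05 limit 6 of 8 passed, with Stat5a, Stat5b, Irf3 and Irf5 higher and Stat6 and Irf1 lower, against 42.7% of all genes. These contrasts use the same 4T1 vehicle samples as the comparison of the lines, so Irf3, Stat5a and Stat5b, which were low in those samples, are not measured independently in both comparisons.

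Stat5a rose from 8.30, 20.8, 15.3 and 15.6 CPM in 4T1 vehicle samples 3, 7, 11 and 15 to 34.7, 25.8, 26.9 and 28.1 CPM in CIX samples 4, 8, 12 and 16. Every CIX sample was above every vehicle sample, and the CIX mean of 28.9 ± 4.01 CPM (SD, n = 4) was close to the 31.4 ± 6.61 CPM of 67NR vehicle samples. The log2 change was 1.00 (SE 0.24, limma-voom adjusted p = 0.00882).

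Stat5b moved the same way, from 44.4, 56.6, 62.0 and 52.1 to 97.7, 83.6, 80.5 and 73.0 CPM, again with no overlap. Its log2 change was 0.62 (SE 0.13, limma-voom adjusted p = 0.00483). DESeq2 and the fit with all 16 samples called it. Sample 4 was the highest of the CIX samples for both STAT5 genes and sample 3 the lowest of the vehicle samples. Without sample 3 the changes were 0.74 and 0.54 with limma-voom adjusted p of 0.00852 and 0.0108, and without sample 4 they were 0.89 and 0.53 with adjusted p of 0.0215 and 0.0108.

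Stat6 fell in 4T1 cells, from 199, 219.5, 234 and 213 CPM with vehicle to 156, 155, 151 and 134 CPM with CIX. Every 4T1 CIX sample lay below every sample of the other 3 groups, of which the lowest was 169 CPM. Its log2 change of -0.56 (SE 0.09, limma-voom adjusted p = 0.00134) was narrowly not called, and it was called with DESeq2, with library-size scaling and with all 16 samples in the fit.

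Stat3 showed no change that passed either limit in 4T1 cells. It measured 145, 142, 166 and 135 CPM with vehicle and 181, 121, 102 and 139.6 CPM with CIX, so the CIX samples lay on both sides of the vehicle samples (log2 -0.16, SE 0.17, limma-voom adjusted p = 0.452). The CIX samples spread more widely, with an SD of 33.6 against 13.5 CPM. Only CIX sample 4 lay above the vehicle range, and without that sample the log2 change was -0.33 (limma-voom adjusted p = 0.0658).

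Irf3 rose in every 4T1 CIX sample, from 13.6, 15.0, 17.7 and 17.6 CPM to 32.8, 45.3, 35.4 and 44.3 CPM, all still below every 67NR sample (47.0 to 69.7 CPM). The log2 change was 1.28 (SE 0.15, limma-voom adjusted p = 2.98e-04). Without vehicle sample 7 or 15 or CIX sample 8 or 16 it was 1.25, 1.33, 1.20 and 1.21 with limma-voom adjusted p from 0.00113 to 0.00174 and was not called, and it was called in the other 4 such fits. The overlapping gene Bcl2l12 had a log2 change of 0.31 (SE 0.21, limma-voom adjusted p = 0.259) in the same comparison.

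Irf5 rose from 1.49, 2.10, 2.72 and 2.18 to 5.02, 5.85, 4.12 and 3.39 CPM in 4T1 cells, from 36 to 63 estimated counts to 84 to 136. The ranges did not overlap, with a log2 change of 1.09 (SE 0.26, limma-voom adjusted p = 0.00815), and DESeq2 called it. Irf5 shares 1045 bases with Tnpo3 on the opposite strand, a gene of 87.8 to 132 CPM in these 2 groups whose log2 change was 0.05 (SE 0.14, limma-voom adjusted p = 0.781). Over the same groups the leukocyte marker sum went from 53.0 to 90.0 CPM to 133 to 199 CPM with Cd68, while Ptprc, the marker common to leukocytes, went from 0.950 to 1.44 CPM to 0.129 to 0.932 CPM, and the part of either in the Irf5 value was not tested.

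Irf1 fell from 79.3, 94.6, 92.5 and 112 to 53.1, 69.1, 79.2 and 63.9 CPM in 4T1 cells. The highest CIX and the lowest vehicle sample were nearly equal, and the log2 change was -0.53 (SE 0.15, limma-voom adjusted p = 0.0163). Its partner Irf2 lay at 42.9 to 54.1 CPM with vehicle and 42.1 to 47.3 CPM with CIX (log2 -0.08, SE 0.11, limma-voom adjusted p = 0.59), with overlapping ranges.

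The effect of CIX in 67NR cells was examined next. Vehicle and CIX ranges did not overlap for 23.4% of all 11558 genes tested. Of 7 members tested, 0 were called by limma-voom, against 0.389% of 11558 genes. DESeq2 and the edgeR quasi-likelihood test also called 0 members at that limit, while over all genes they called 1039 and 46. By limma-voom 2 members passed at 0.05 (17.8% of all genes), Stat3 as higher and Irf1 as lower. At an unadjusted p below 0.05, which at least 17.8% of all genes met, 3 members passed, with Stat5b as the third.

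Stat3 rose in 67NR cells, from 42.8, 68.0, 54.9 and 73.0 CPM with vehicle to 78.1, 99.3, 99.3 and 81.9 CPM with CIX in samples 2, 6, 10 and 14. Every CIX sample was above every vehicle sample, and all remained below the 4T1 samples. The log2 change of 0.59 (SE 0.18, limma-voom adjusted p = 0.0478) lay just inside the 0.05 limit, and it was outside in 6 of 8 fits without 1 sample, those without vehicle sample 1, 5 or 9 or CIX sample 6, 10 or 14 (limma-voom adjusted p from 0.0577 to 0.118).

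Irf1 fell in 67NR cells too, from 62.6, 71.5, 49.7 and 73.9 to 45.2, 48.9, 41.8 and 51.0 CPM. Vehicle sample 9 overlapped the CIX range. The log2 change of -0.47 (SE 0.14, limma-voom adjusted p = 0.0467) was outside the 0.05 limit in 7 of 8 fits without 1 sample, all but the one without sample 9 (limma-voom adjusted p from 0.0739 to 0.115).

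Stat5b was 70.3, 73.2, 70.6 and 74.7 CPM with vehicle and 81.3, 87.3, 81.0 and 85.9 CPM with CIX in 67NR cells. The groups did not overlap and their spread was small, but the log2 change of 0.20 (SE 0.06, limma-voom adjusted p = 0.0605) did not pass. Without vehicle sample 13 it was 0.23 and passed at 0.05 (limma-voom adjusted p = 0.0346).

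The other 67NR members overlapped between treatments. The log2 change was -0.18 (SE 0.16) for Stat5a, 0.07 (SE 0.13) for Stat6, 0.04 (SE 0.15) for Irf2 and 0.03 (SE 0.14) for Irf3, with limma-voom adjusted p from 0.478 to 0.904. For Irf3 the values were 58.8, 69.7, 47.0 and 68.7 CPM with CIX against 51.9 to 66.4 CPM with vehicle.

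Irf5 did not pass the filter in 67NR cells. The CIX samples held 23, 7, 2 and 23 estimated counts against 0 to 2 with vehicle. Summed, these are 55 and 4 counts, a ratio per depth of 14.0 (exact 95% interval 5.15 to 53.0, counting error only), and CIX sample 10, at 0.0915 CPM, held 2 counts, as did the highest vehicle sample at 0.0795 CPM. The interval leaves out the spread between cultures, which was wide, so no test of a change is given.

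**Figure D2:**
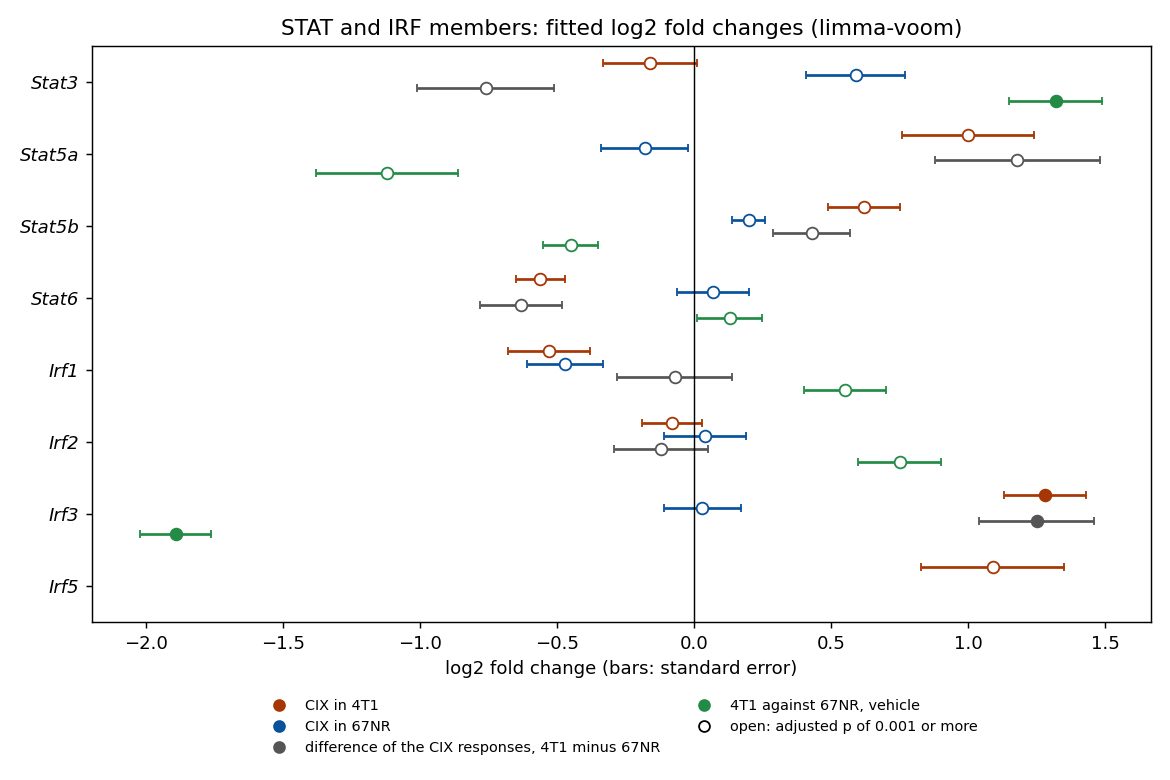
Fitted log2 fold change of each member (x axis) with its standard error in 4 comparisons, shown by color; filled points had an adjusted p below 0.001. Irf3 had filled points at 1.28 for CIX in 4T1, 1.25 for the difference of the responses and -1.89 between the lines, whereas its 67NR response was 0.03. Comparisons in which Irf5 was not tested, or that rest on its 67NR vehicle counts, are not drawn.

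Whether the response to CIX differed between the lines was tested as an interaction over all 16 samples. Of 8 members in the fit, 1 was called, Irf3, against 7.86% of 12609 genes tested. The 8 include Irf5, which did not pass and whose test is not read, for the reason given below. At 0.05, 5 passed (29.3% of all genes), with the response of Irf3, Stat5a and Stat5b higher and that of Stat6 and Stat3 lower in 4T1 than in 67NR. For Stat3 the change in 4T1 did not pass, and the rise was in 67NR.

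For Irf3 the difference of the responses was 1.25 on the log2 scale (SE 0.21, limma-voom adjusted p = 5.24e-04). It was between 1.13 and 1.32 in the 16 fits without 1 sample. In 8 of them, those without 67NR sample 2, 5 or 13 or 4T1 sample 3, 7, 8, 15 or 16, it was not called (limma-voom adjusted p from 0.00102 to 0.00176).

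Stat5a differed by 1.18 (SE 0.30, limma-voom adjusted p = 0.00711) and Stat6 by -0.63 (SE 0.15, limma-voom adjusted p = 0.00516). Both passed at 0.05 in every one of the 16 fits without 1 sample, and Stat6 was called without 67NR sample 13 (-0.73, limma-voom adjusted p = 8.65e-04).

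Stat3 differed by -0.76 (SE 0.25, limma-voom adjusted p = 0.0309) and Stat5b by 0.43 (SE 0.14, limma-voom adjusted p = 0.0343), and these were less stable. Stat3 was outside the 0.05 limit in 7 of 16 fits without 1 sample (67NR samples 1, 6, 9 and 10, 4T1 samples 8, 11 and 12), with limma-voom adjusted p from 0.0561 to 0.067. Stat5b was outside it in 11 of 16 (67NR samples 1, 2, 5, 9, 10, 13 and 14, 4T1 samples 3, 4, 8 and 15), with adjusted p from 0.0502 to 0.0641.

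Irf1 (-0.07, SE 0.21, limma-voom adjusted p = 0.853) and Irf2 (-0.12, SE 0.17, adjusted p = 0.656) had differences of response that did not pass. For Irf5 no test of the difference is read, because it rests on 67NR vehicle counts of 0 to 2, under the limit of detection, in a gene that entered the fit through its 4T1 level. After CIX, 4T1 samples held 459 Irf5 counts in all and 67NR samples 55, a ratio per depth of 7.87 (exact 95% interval 5.94 to 10.6, counting error only).

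Balances within a sample were compared as ratios of TPM, as a description. Irf1 per Irf2, activator to antagonist, was 2.50 (range 2.01 to 3.01) in 67NR vehicle, 1.74 (1.60 to 1.90) in 67NR CIX, 2.18 (1.80 to 2.69) in 4T1 vehicle and 1.58 (1.33 to 1.95) in 4T1 CIX samples. CIX samples were lower in mean in both lines, and only the 67NR ranges were fully apart. Stat5a per Stat5b was 0.654 (0.560 to 0.815) in 67NR vehicle and 0.415 (0.282 to 0.554) in 4T1 vehicle samples. With CIX it was 0.498 (0.427 to 0.580) in 67NR and 0.522 (0.465 to 0.582) in 4T1. The means of the lines were nearer to each other with CIX, but vehicle and CIX ranges overlapped in each line.

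**Figure D3:**
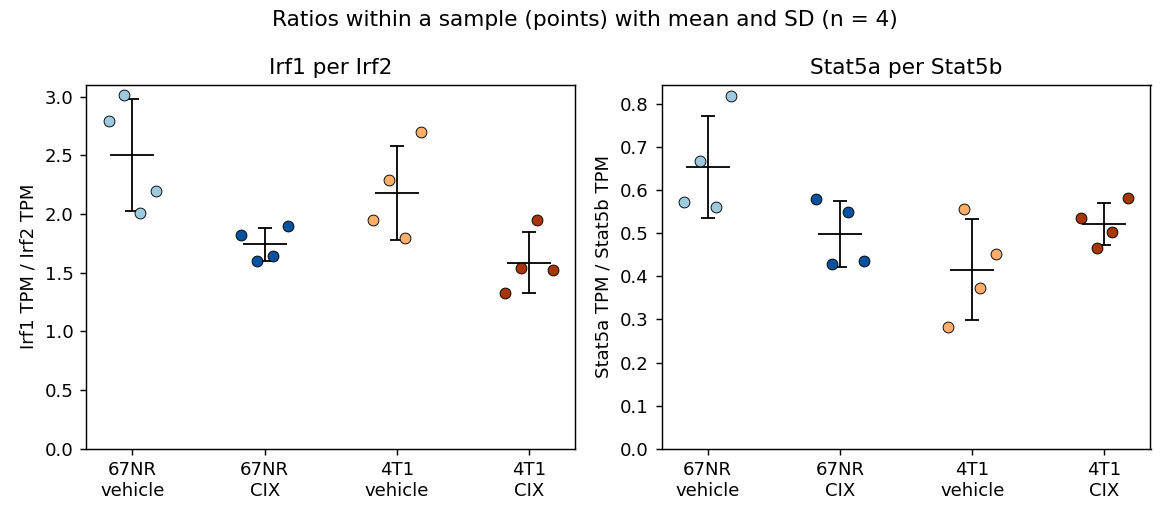
Ratio of Irf1 to Irf2 TPM and of Stat5a to Stat5b TPM in each sample (points, linear axes from 0) with the mean and SD of each group of 4. The Irf1 per Irf2 mean was lower with CIX in both lines, from 2.50 to 1.74 in 67NR and from 2.18 to 1.58 in 4T1.

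Genes that work with the members were described from lists of textbook members. Of the other STAT and IRF factors, Stat4 and Irf4 were not tested in any comparison. In 4T1 cells 2 of the 6 tested were called and 4 passed at 0.05, all as lower, against 9.31% and 42.7% of all genes in either direction. Irf7, the amplifier of the interferon response, changed by -2.76 (SE 0.33, limma-voom adjusted p = 2.78e-04), Irf9, the DNA-binding part of ISGF3, by -1.69 (SE 0.17, adjusted p = 1.41e-04), and Stat2 by -0.79. Irf8, at -0.05, did not pass. The median log2 change of these 6 was -0.78 against -0.007 over all genes tested, whereas the median of the 8 members was 0.27.

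In 67NR cells 3 of those other factors were tested and 1, Stat2, passed at 0.05, as higher (0.61, SE 0.12, limma-voom adjusted p = 0.0106), against 17.8% of all genes. The Stat2 response differed between the lines by -1.40 (SE 0.22, limma-voom adjusted p = 2.53e-04), called in each of 16 fits without 1 sample. With vehicle, 3 of 4 tested were called, against 40.0% of all genes. Irf7 (5.61), Irf9 (3.20) and Stat2 (1.96) were higher in 4T1 on the log2 scale, the line in which Irf3 was lower.

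Upstream, 12 of 21 cytokine receptor chains were tested in 4T1. At 0.05 only 3 passed, all higher, against 42.7% of all genes, and 2 were called, against 9.31%. The 2 called were Ifnar2 (1.34, SE 0.14, limma-voom adjusted p = 1.62e-04), a chain of the type I interferon receptor, and Ghr (0.78, SE 0.12, adjusted p = 8.67e-04), the growth hormone receptor. In 67NR cells both rose at the 0.05 limit, by 0.57 and 0.41, with 3 of 13 passing against 17.8% of all genes. Prlr, the prolactin receptor, and Epor were under the filter in every comparison. Of the 4 Janus kinases, 0 were called in 4T1 with limma-voom or edgeR and 1 with DESeq2, which called 3095 of 11660 genes. An unadjusted p below 0.05 was found for 2 of them and for at least 42.7% of all genes. After adjustment 1 of the 4 passed at 0.05, below the 42.7% of all genes. It was Tyk2 (0.62, SE 0.13, limma-voom adjusted p = 0.00428), the kinase bound to the interferon receptor, whose response also differed between lines (0.69, SE 0.15, adjusted p = 0.00296). With vehicle, Jak1 was lower (-1.01) and Jak3 higher (1.19) in 4T1, both called, against 40.0% of all genes.

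Of 10 adaptors and kinases that lead to IRF3 and IRF5, 0 were called in 4T1 with limma-voom or edgeR and 2 with DESeq2. DESeq2 called 3095 of 11660 genes there. An unadjusted p below 0.05 was found for 6 of the 10 and for at least 42.7% of all genes. At the 0.05 limit 3 rose and 1 fell, a share near the 42.7% of all genes. The 3 were Mavs (0.73), Irak1 (0.74) and Traf6 (0.54), and the other was Irak4 (-0.46), named after their values were seen. In 67NR 1 of the 10, Tbk1, fell by 0.22, against 17.8% of all genes. Between the lines with vehicle, 5 of the 10 were called, 4 higher and 1 lower in 4T1, against 40.0% of all genes. The lower one was Irak1 (-1.35), named after its value was seen. Sting1, the adaptor of DNA sensing, was 3.17 higher, Ikbke, a kinase of IRF3, 2.62 higher and Ikbkb 1.41 higher in 4T1 on the log2 scale.

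Among 19 STAT inhibitors and IRF2 co-repressors, 0 were called in 4T1 with limma-voom or edgeR and 2 with DESeq2, which called 3095 of 11660 genes. An unadjusted p below 0.05 was found for 5 of the 19 and for at least 42.7% of all genes. After adjustment 3 rose and 1 fell at 0.05, against 42.7% of all genes. Pias3, an inhibitor of STAT3, had a response that differed by 1.02 (SE 0.18, limma-voom adjusted p = 7.10e-04) between the lines. With vehicle 7 of 18 tested were called, 5 lower and 2 higher in 4T1, a share near the 40.0% of all genes called. The largest differences were those of Socs1 (-3.07), Socs2 (-2.09) and Pias3 (-1.72).

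Known target genes were counted next. In 4T1, 1 of 11 tested STAT3 targets was called, against 9.31% of all genes, and 2 rose and 1 fell at 0.05, against 42.7%. DESeq2 called 2, against 3095 of 11660 genes, and 5 had an unadjusted p below 0.05, as did at least 42.7% of all genes. The called gene was Pim1 (1.59, SE 0.19, limma-voom adjusted p = 2.67e-04), a kinase that is also on the STAT5 list, and its response differed by 1.54 from that in 67NR (SE 0.25, adjusted p = 3.28e-04). Of 6 tested STAT5 targets 3 passed at 0.05 in 4T1, a share near the 42.7% of all genes, with Pim1 higher and Socs2 (-0.60) and Pim2 (-0.78) lower. Of 12 STAT6 targets 4 could be tested and 0 passed at either limit by limma-voom, against the same 9.31% and 42.7%. By edgeR and DESeq2 0 passed either, while DESeq2 called 3095 of 11660 genes. An unadjusted p below 0.05 was found for 1 of the 4 and for at least 42.7% of all genes. The milk protein genes Csn2, Csn1s1 and Wap, classical STAT5 targets, did not pass the filter in any comparison.

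Of 12 tested IRF1 targets in 4T1, 3 were called, all lower, against 9.31% of all genes in either direction, and 7 fell at 0.05, against 42.7% in either direction, with a median log2 change of -0.54. The 3 were Gbp2 (-3.54, SE 0.23, limma-voom adjusted p = 4.27e-05), an interferon-inducible GTPase, the immunoproteasome subunit Psmb10 (-1.88) and Casp1 (-1.56). Gbp2 went from 30.0 to 49.9 CPM with vehicle to 2.54 to 3.73 CPM with CIX. In 67NR 9 were tested, 2 fell and 1 rose at 0.05, against 17.8% of all genes, and the median was -0.30, against -0.006 over all genes.

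IRF3 targets are interferon-stimulated genes that ISGF3 can also bind. Of 8 tested in 4T1, 4 were called, against 9.31% of all genes, and 8 fell at 0.05, against 42.7% in either direction, in the comparison in which Irf3 itself rose. The 4 called were Isg15 (-3.69, SE 0.35, limma-voom adjusted p = 1.05e-04), a ubiquitin-like modifier, Oasl1 (-2.91), the chemokine Ccl5 (-2.47) and Ifit2 (-0.89), which was named after its value was seen, and the median of the list was -2.30. In 67NR 5 were tested, 0 were called with limma-voom or edgeR and 3 with DESeq2, 5 had an unadjusted p below 0.05 and 4 fell at 0.05 with a median of -1.51. Of all genes there, 0.389% were called and 17.8% passed at 0.05, and DESeq2 called 1039 genes. Irf3 itself changed by 0.03. With 1 sample left out, 2 to 4 of the 8 were called and 8 of 8 were below 0.05 in 4T1. Of 8 IRF5 targets, 2 could be tested in 4T1, and both fell at 0.05, Il23a (-1.29, called) and Cxcl10 (-1.94), against 42.7% of all genes in either direction. With 2 genes this count describes only them.

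The calls of single list genes in 4T1 differed in how they held when 1 sample was left out. Gbp2, Psmb10, Casp1, Isg15, Oasl1 and Irf9 were called in 8 of 8 such fits, Ifnar2 in 7, Irf7 and Il23a in 5, Pim1 in 4, Ghr and Ccl5 in 1 and Ifit2 in 0, and the direction was kept in every one of them.

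**Figure D4:**
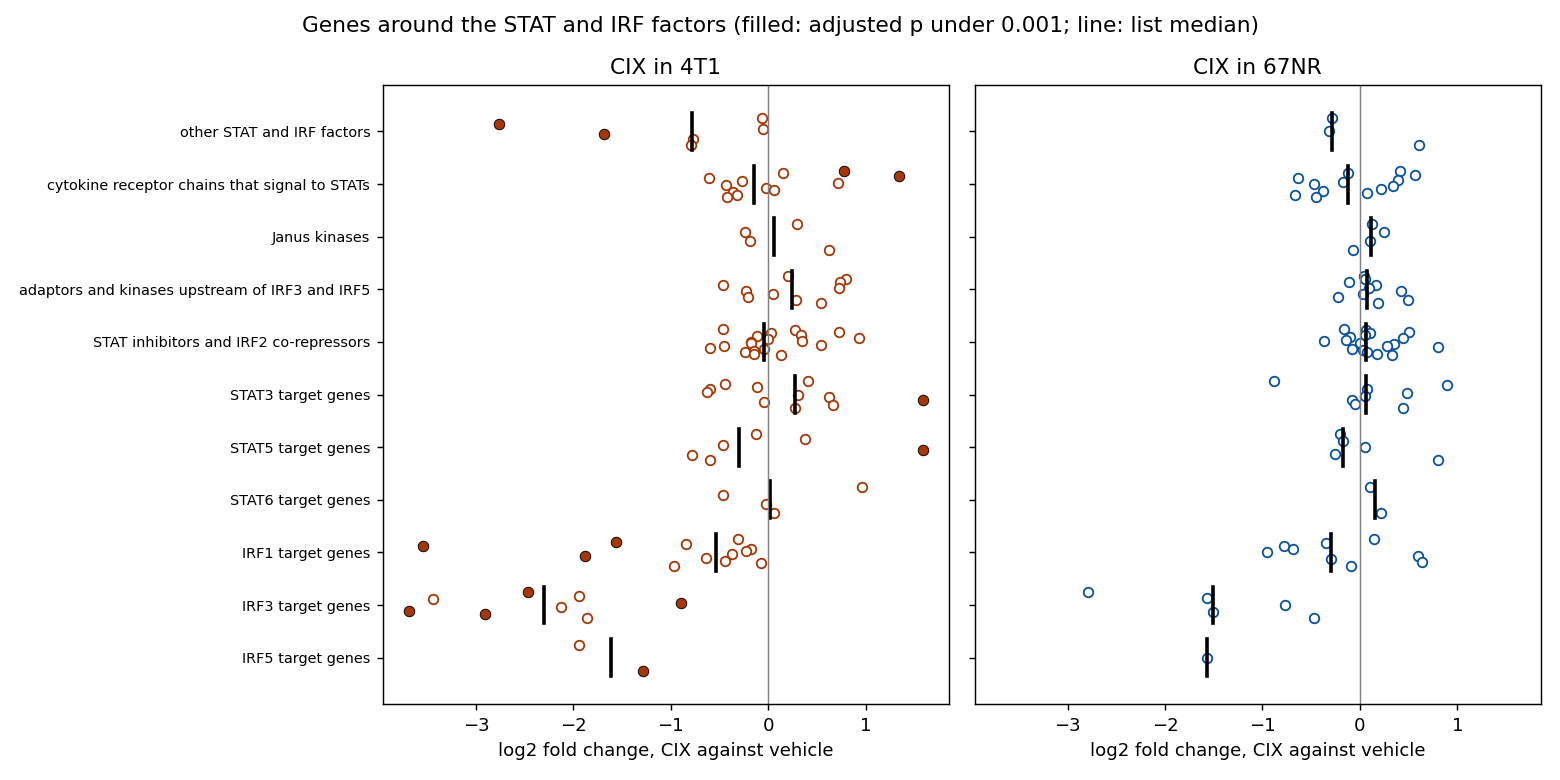
Log2 fold change with CIX (x axis) of each tested gene of 11 lists around the members, in 4T1 (left) and 67NR (right); filled points had an adjusted p below 0.001 and black lines mark list medians. The IRF3 target medians were -2.30 in 4T1 and -1.51 in 67NR, left of 0 in both lines, and no point is filled in 67NR.

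The genes with the most similar pattern were sought among 12609 genes, by the root mean square difference of centered log2 CPM over the 16 samples. For Irf3, whose own spread was 0.785, they were Ppp1r12c (0.166) and Aup1 (0.169). For Stat3 they were Gtf2e2 (0.216) and Slc2a1 (0.231), for Stat6 Ap2a1 (0.131) and Zc3h10 (0.139), and for Stat5b Rpl36 (0.113) and Agap3 (0.131). For Stat5a they were Samd4 (0.252) and Snx21 (0.253), against a spread of 0.521. For Irf1 they were Rbmx2 (0.191) and Trim59 (0.198), for Irf2 Znrf1 (0.136) and Bloc1s6 (0.137), and for Irf5 Mmp11 (0.341) and Slc45a3 (0.361). No other member was among the nearest 2 of any member, the STAT5 pair included.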

How the data were processed

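RNA of 4T1 and 67NR cells was sequenced with a stranded mRNA kit. Per the labels and the study's methods, the authors ran Salmon 0.12 and collapsed its output to gene level by tximport. The deposited file is 1 table of estimated counts for 16 samples and 33072 genes. The methods name GRCm38 and the processing notes list GRCh38. All 33072 identifiers are mouse Ensembl genes, and GRCm38 is used here. In genes with 1 transcript that were at 0 in some samples, the lowest value above 0 had a median of 0.977 to 0.983 in 3 classes of length, so 1 read was worth about 1 at every length and counts were divided by length for TPM. The 8 symbols and the gene lists were chosen with earlier results of these data known.

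Estimated counts were rounded, genes below about 1 TPM in more than 3 samples were removed, and limma 3.58.1 (voom) was fitted with TMM factors from edgeR 4.0.16 in R 4.3.3, per comparison, with Benjamini-Hochberg adjustment over all tested genes. The interaction used all 16 samples. Only the comparison of CIX with vehicle in 4T1 was tried on simulated data, and the outcome is not given here. Alternatives were the edgeR quasi-likelihood test, DESeq2 1.42.0, other scalings, no filter, a 0.05 limit, a common fit and leaving out each sample. All 8 members are named, with other STAT, IRF and JAK genes and at most 3 called genes per list and comparison by the size of the log2 change. Any other list gene was named after its value was seen. Exact Clopper-Pearson limits (95%) were used for count ratios.

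Each sample held 21715700 to 29450629 estimated counts, which limits precision for Irf5 alone among the members. Values of some genes of the lists are not reported here.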

Additional observations from a re-analysis of the deposited data

Results flagged for a closer look

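Each group's highest and lowest sample was compared with the others for the 8 members and for 15 called genes of the lists, 92 groups in all, of which chance alone marks about 1 in 20, or 4.6, and 3 stood out. Irf2 in 4T1 vehicle sample 11 was at 54.1 CPM, against 42.9 to 43.7 CPM in the other 3. Ifnar2 in 4T1 CIX sample 4 was at 71.9 CPM, against 92.9 to 97.0 CPM. Oasl1 in 67NR CIX sample 2 was at 0.271 CPM, with the other 3 at 0.

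The response to CIX differed between the lines by the interaction term, with a limma-voom adjusted p below 0.001, for Irf3 (log2 difference 1.25, 4T1 minus 67NR) among the members. Among the list genes it did so for Pim1 (1.54), Pias3 (1.02), Casp1 (-1.21), Stat2 (-1.40), Psmb10 (-1.58), Gbp2 (-2.85) and Isg15 (-3.22). Stat2 and Irf3 are the transcription factors among them and differed in opposite directions. When 1 sample was left out, Stat2, Psmb10, Gbp2 and Isg15 were called in 16 of 16 fits, Pim1 in 14, Irf3 in 8, Pias3 in 3 and Casp1 in 1.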

How the results depend on the processing

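No paired analysis was possible because the sample numbers run from 1 to 16 and no groups share one. The numbers cycle through the 4 groups, but the labels do not tie consecutive numbers to a shared culture or day, so no block of 4 was fitted. In 4T1, 6 members and 4979 genes passed at 0.05, 4 and 3095 were called with DESeq2, 3 and 2718 with all 16 samples in the fit, and 2 members with library-size scaling, which put 530 of 1040 calls lower (51.0% against 42.6%). In 67NR, 2 members and 2055 genes passed at 0.05, and DESeq2 called 1039 genes and the common fit 145. Library-size scaling put 64.1% of the 67NR calls lower against 53.3%. For the interaction, 5 members and 3699 genes passed at 0.05, and DESeq2 called 1977 genes. Between the lines, 6 members and 7442 genes passed at 0.05, 5 members were called with DESeq2 and 5 with the common fit. The causes were not tested.

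Without 1 sample, called members were 0 to 1 in 4T1 and 0 to 1 for the interaction, and called genes 269 to 974 in 4T1 (269 without CIX sample 8), 0 to 77 in 67NR and 652 to 1047 for the interaction. Log2 changes near 0 changed sign: Irf2 (-0.03 to 0.18) and Irf3 (-0.04 to 0.14) in 67NR and the Irf1 interaction (-0.16 to 0.05). No other member changed sign under any alternative run. Depth limited only Irf5, with 0 to 2 counts in 67NR vehicle samples.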
